A study of Danio rerio with 6 samples.

Results

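Wildtype zebrafish were described here as a baseline transcriptome of the whole embryo at 48 hours post-fertilization, from 3 of the 6 libraries of the series. The wildtype libraries were chosen by their names in the header of the count table, where they are called casper with the numbers 1 to 3. Each library came from an untreated pool of 30 to 50 whole embryos, and poly-A RNA was sequenced from extracts whose RNA integrity number was 8 or more. Casper fish carry mutations in mitfa and mpv17 that remove melanophores and iridophores, so these wildtype embryos are wildtype for dnajc21 and, as the header names them, not for pigment. The series set them against 3 libraries of dnajc21 mutants of the same age, which were not used here. The labels do not say whether the pools came from separate clutches, so the spread between them may be partly technical.

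A zebrafish embryo of this age has a beating heart, circulating primitive red cells, working trunk muscle and a layered skin, lives from its yolk, and is about to leave or has left its chorion. Its poly-A RNA is therefore a mixture in which large tissues, and tissues that make much of a few proteins, take most of the reads. In such whole-embryo RNA, fewer cells of a type and less RNA per cell cannot be told apart.

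The pools held 8600951, 10477853 and 10635686 counts in replicates 1 to 3, and 26287, 26971 and 26850 rows had a count above 0. Of 35197 rows in the table, 29355 had a count in at least 1 pool and 24170 in all 3. Levels are given as CPM, which is 10000 times the percentage of the library's counts that a row takes, after scaling of the totals by the trimmed mean of M values (TMM, factors 0.997, 0.982 and 1.02 in replicates 1 to 3), in the order replicate 1, 2, 3. A count of 0 allows up to 3 counts, which is 0.349, 0.286 and 0.282 CPM in replicates 1 to 3 and covers counting error only. CPM is a share of reads and is not divided by transcript length, so it ranks rows by the reads they took and not by transcript number.

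The genes behind the strain name were read in every pool. The row of mitfa, the master regulator of melanophore fate, had 8.39, 6.61 and 6.26 CPM. The row of mpv17, for a mitochondrial inner membrane protein, had 0.583, 0.583 and 0.644 CPM, which were 5, 6 and 7 counts. Counts per gene do not show a change of sequence, so neither row tests the strain. The wildtype level of dnajc21, the J-domain co-chaperone of ribosome assembly studied in the series, was 22.5, 24.8 and 30.8 CPM, a mean of 26.04 ± 4.31 CPM (SD, n = 3). Its highest pool, replicate 3, stood 1.37-fold above its lowest, replicate 1.

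Replicate 2 stood apart from both others in a small block of rows. At a mean of at least 10 CPM, 18 rows were at least 3 log2 units (8-fold) higher in replicate 2 than in either other pool, and their gap to the next pool ran from 3.32 to 7.72. The next row outside the block, FO904966.2, had a gap of 1.04, so no row of that level filled the space between. With rows down to a mean of 1 CPM counted in, 30 rows passed the same gap. The block took 0.129%, 4.95% and 0.0955% of the counts of replicates 1 to 3, or 518601 of the counts of replicate 2. Of the 18 rows, 3 matched the RefSeq gene table by symbol, where zgc:158463 is an rRNA, rn7sk is the 7SK small nuclear RNA that holds back the elongation factor P-TEFb, and wu:fi09b08 is protein coding.

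The row zgc:158463 had 347, 14869.5 and 254 CPM, and CT027638.1, a row with a clone name only, had 430.0, 14582 and 303 CPM. A further row with a clone name, FO704772.2, had 169.5, 6046 and 115 CPM. In replicate 2 these rows ranked 1, 2 and 10 among all rows, and in neither other pool did they reach the leading 25. The level of rn7sk was 0.700, 34.9 and 1.01 CPM, which was 6 and 11 counts in replicates 1 and 3 and 359 counts in replicate 2. Rows that share reads are marked by non-whole counts, and 13 of the 18 rows had them in all 3 pools.

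**Figure D1:**
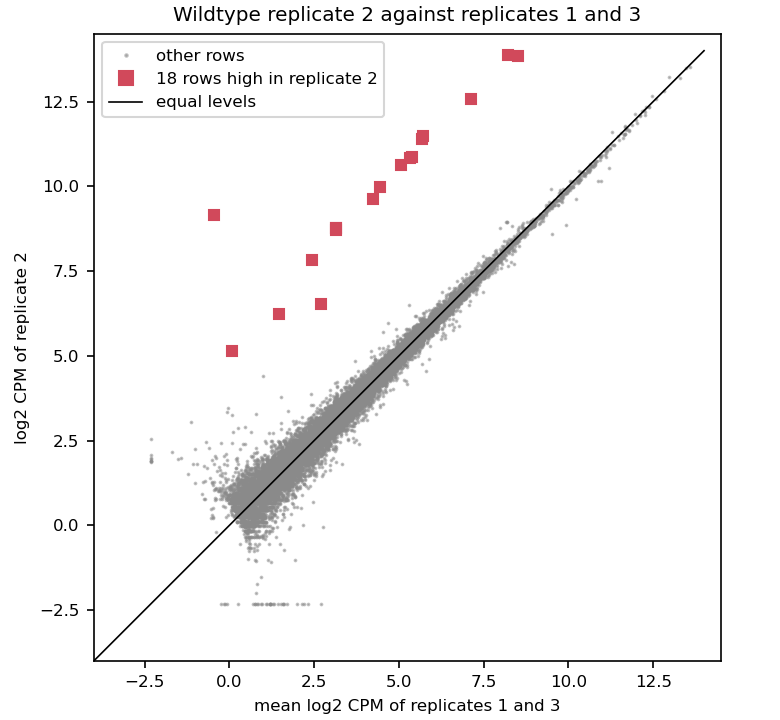
Each point is 1 of 19925 rows, with the mean log2 CPM of wildtype replicates 1 and 3 on the x axis and the log2 CPM of wildtype replicate 2 on the y axis, and the line marks equal levels. The 18 rows of the block (squares) stand well above the line, with a gap of at least 3.32 log2 units to either other pool. Most other rows follow the line, and low rows scatter on both sides of it.

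RNAs that carry no poly-A tail in most cells were then gathered, chosen after their values had been seen. Besides rn7sk, the row RF00009, for the RNA of RNase P, had 0.135, 8.12 and 0.408 CPM, and RF00030, for the RNA of RNase MRP, had 0.117, 4.28 and 0.0921 CPM. Among replication-dependent histones, whose mRNAs end in a stem-loop in place of a tail, 5 of 18 rows reached a mean of 1 CPM. Of these 5, 4 were highest in replicate 2. The rows hist1h2a1, hist1h2a3 and hist1h2a11 were under 1 CPM in replicates 1 and 3, so they reached that mean through replicate 2 alone. The same held for RF00009 and RF00030, while hist2h3c was above 1 CPM in every pool. The count of 4 of 5 can therefore not be read against the 33.4% of all rows that were highest in replicate 2. The H2A row hist1h2a11 had 0.233, 4.58 and 0.368 CPM and hist1h2a3 had 0.811, 5.15 and 0.482 CPM, both highest in replicate 2. The exception among the 5 histone rows was hist2h2l, at 63.5, 55.8 and 43.5 CPM and highest in replicate 1. The efficiency of poly-A selection was not measured, and its part in these values was not tested.

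Linker histone rows were also gathered after seeing values, and not for lack of a tail. At 1 CPM or more, 3 of 3 were highest in replicate 2 and lowest in replicate 3. Of all rows 33.4% and 31.2% were, but because of that choice the count cannot be read against these shares. The row histh1l had 356, 491 and 236 CPM, h1f0 had 297, 439 and 216 CPM and h1fx had 30.9, 47.5 and 30.5 CPM. Replicates 1 and 3 were nearly level for h1fx alone.

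Few rows carried much of the RNA. The 10 leading rows took 7.07%, 8.57% and 7.43% of the counts of replicates 1 to 3, and the 100 leading rows took 28.7%, 29.9% and 27.9%. A share of 50% of the counts lay in the leading 493, 467 and 547 rows. Without the 18 rows of replicate 2 these values were 7.54%, 8.01% and 7.91% for the 10 leading rows, 29.0%, 28.2% and 28.2% for the 100 leading rows, and 491, 558 and 545 rows for 50%. At the other end, rows with a mean under 1 CPM held 0.258%, 0.289% and 0.276% of the counts. A mean of at least 1 CPM was reached by 19925 rows, at least 10 CPM by 11193, at least 100 CPM by 1486 and at least 1000 CPM by 132, and these 132 rows held 32.5%, 33.3% and 31.5% of the counts.

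The leading rows were those of muscle contraction, skin keratins, translation and yolk lipid transport. Of the 25 rows with the largest mean share, 11 were on the list of fast skeletal muscle, 3 each on the lists of epidermis and apolipoproteins, 2 on the list of actin and tubulin, 1 each on the lists of translation elongation and of heat shock and folding, 2 belonged to the block of replicate 2 and 2 were on no list. Of the 100 leading rows, 34 were for cytosolic ribosomal proteins and 20 for fast muscle. Replicates 1 and 3 shared 22 of their 25 leading rows, and all 3 pools shared 20, with 3 of the leading rows of replicate 2 coming from the block.

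The highest named row was krt4, a type II keratin of the superficial skin layer, with 11679, 11765 and 12982 CPM. The alpha-actin gene actc1b, of the thin filaments of skeletal muscle, followed with 12211, 11612 and 10471 CPM, and the elongation factor gene eef1a1l1, which delivers aminoacyl-tRNA to the ribosome, with 9939, 9419.8 and 10185 CPM. The order of krt4 and actc1b was not the same in all pools, since actc1b led in replicate 1 and krt4 in replicates 2 and 3. The fast myosin heavy chain row myhz1.1 had 6897, 9603 and 9361 CPM and was lowest in replicate 1 by a wider margin than the rows around it. The tropomyosin row tpma, by contrast, had 7109, 7159.6 and 7332 CPM, a span of 1.03-fold. Rows of actc1b, eef1a1l1 and myhz1.1 have non-whole counts in all pools, so part of their reads was shared with similar rows.

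Calcium handling and energy buffering of muscle filled the next places. The parvalbumins pvalb2 and pvalb1, small calcium buffers of fast fibres, had 6629, 6092 and 5620.1 CPM and 5088, 4853 and 4475 CPM. The gene atp2a1, for the calcium pump of the sarcoplasmic reticulum, had 5353, 6431 and 5969.7 CPM. Both parvalbumins were highest in replicate 1, and the pump was lowest there. The regulatory light chain mylpfa had 5481, 5172 and 5186 CPM, and the creatine kinase genes ckmb and ckma, which keep ATP supplied during contraction, had 4993, 5150.2 and 4951 CPM and 4772, 4340.2 and 4149 CPM. All of these rows except atp2a1 have whole counts in every pool.

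Housekeeping rows near the top varied little. Cytoplasmic beta-actin, actb1, had 4419, 4374 and 4419 CPM with an SD of 0.0085 on the log2 scale, and actb2 had 4076, 3997 and 4086 CPM. Since both share reads, their sum was also taken, at 8495, 8371 and 8506 CPM. The constitutive chaperone genes hspa8 and hsp90ab1 had 3524, 3230.1 and 3519 CPM and 3361, 3306 and 3377 CPM. The 2 leading rows on no list were slc25a5, the ADP/ATP carrier of mitochondria, at 3819, 3618 and 3758 CPM, and bhmt, for the betaine-homocysteine methyltransferase of the methionine cycle, at 3559.7, 3174 and 3511 CPM.

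**Figure D2:**
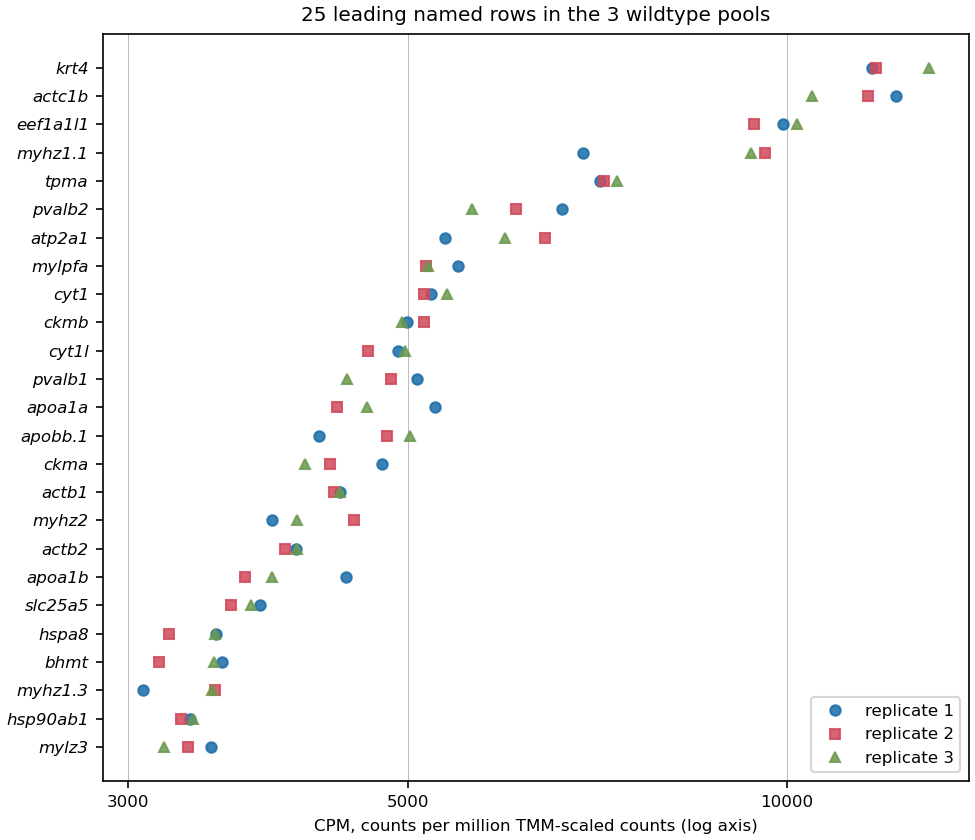
CPM (log axis) of the 25 named rows with the highest mean, in wildtype replicate 1 (circles), replicate 2 (squares) and replicate 3 (triangles). The 3 pools lie close together in most rows, and myhz1.1, at 6897 CPM in replicate 1 against 9603 and 9361 CPM in the others, spans the widest range.

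Tissues were then read from lists of marker genes as the share of all counts that each list took. All listed rows together took 38.0%, 35.0% and 36.8% of the counts of replicates 1 to 3. Ribosomal proteins came first with 10.1% ± 0.703 (SD, n = 3) in 86 rows, all at 1 CPM or more. Among them rps2 had 3422, 2992 and 3154 CPM and rplp0, of the ribosomal stalk, 3113, 2633 and 2673 CPM. The elongation factors added 1.58% ± 0.0884, mostly eef1a1l1 and the translocase gene eef2b at 3328, 2984 and 3127 CPM, and 94 of 98 rows of the nuclear-encoded respiratory chain at 1 CPM or more added 1.27% ± 0.0732, led by the ATP synthase subunits atp5f1b and atp5fa1. Glycolysis took 0.667% ± 0.0386, with gapdh at 1635, 1357 and 1487 CPM.

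Among the tissue lists, muscle took the largest share. All listed rows together held a mean of 36.6% of the counts, so the shares rank lists of chosen genes and not whole tissues. Fast skeletal muscle took 9.43%, 9.72% and 9.63%, a mean of 9.60% ± 0.150, and 44 of its 48 listed rows reached 1 CPM. Slow skeletal muscle took 0.182% ± 0.0114, and its leading row smyhc1, the first myosin heavy chain of slow fibres, had 1003, 1113 and 1151 CPM. The heart list took 0.137% ± 0.00323, but most of that was actc1a, an alpha-actin at 1207, 1168 and 1171 CPM that skeletal muscle also makes. Genes made mainly in the heart were far lower in reads, with the myosin light chain myl7 at 33.9, 34.5 and 31.7 CPM and the atrial peptide nppa at 19.5, 22.9 and 19.4 CPM. The 15 heart rows had a median SD of 0.14 on the log2 scale, near the 0.16 of all rows. Of all rows 5.93% reached a range of 1, and of the 15 heart rows 1 did. That row was gata4, for a transcription factor of heart and gut development, at 0.583, 1.26 and 2.21 CPM and highest in replicate 3.

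Skin and matrix came next. The epidermis list took 2.91% ± 0.152, led by krt4, cyt1 at 5223, 5156 and 5371 CPM and cyt1l at 4917, 4652 and 4973 CPM. Both cyt1 and cyt1l are type I keratins on rows that share reads. The keratin gene krt5 had 1430.5, 1357 and 1353 CPM, and whole-embryo counts do not place these reads in a skin layer. Skin and fin fold matrix took 0.661% ± 0.0237, with the collagens col1a1a at 2063, 1899.5 and 1820.3 and col1a1b at 1307, 1244 and 1208 CPM, the periostin gene postnb at 1138, 1131 and 1098 CPM, and the actinodins and2 and and1, of the fin fold rays, at 447, 416 and 379 and 353, 328 and 306 CPM. Cartilage and notochord matrix took 0.333% ± 0.00840, with the type II collagen col2a1a at 881, 949 and 857 CPM and col11a1a at 623, 695 and 667 CPM. Ionocytes, the salt-transporting cells of the skin, took 0.0327% ± 0.000412, with the carbonic anhydrase ca2 at 155, 152 and 146 CPM and foxi3b, a transcription factor of their fate, at 12.8, 11.1 and 12.1 CPM.

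Yolk and liver products were plentiful. Apolipoproteins of the yolk syncytial layer and liver took 2.40% ± 0.124. The gene apoa1a had 5254, 4393 and 4644 CPM, apobb.1, for the large scaffold of lipoprotein particles, had 4251, 4812 and 5020.3 CPM, and apoa2 had 3468, 3008 and 2987 CPM. Replicate 1 was the highest for apoa1a and apoa2 and the lowest for apobb.1. Liver plasma proteins took 0.461% ± 0.0145, led by the transferrin gene tfa at 1338, 1213 and 1209 CPM, and the retinol carrier rbp4 had 397, 274 and 303 CPM. Gut genes took 0.0949% ± 0.00421, almost all of it the fatty acid carrier fabp1b.1 at 751, 690.0 and 719.7 CPM, which the yolk layer also makes, and fabp2 at 214, 209 and 203 CPM, while the brush border villin vil1 had 1.63, 1.26 and 1.197 CPM.

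In the pancreas, 6 of 6 endocrine genes reached 1 CPM, with insulin, ins, at 12.9, 10.3 and 10.04 CPM and glucagon, gcga, at 9.86, 8.45 and 7.83 CPM. Of the exocrine list only 3 of 16 rows did: the fate regulator ptf1a at 6.53, 7.97 and 5.71 CPM, the carboxypeptidase cpa5 at 7.81, 5.93 and 5.16 CPM and the trypsin gene prss1 at 1.98, 1.07 and 1.197 CPM. The other 13 digestive enzyme rows were under 1 CPM. Vitellogenins, the yolk proteins that the mother makes, were low, with 2 of 7 rows at 1 CPM or more. These were vtg1 at 1.53, 4.33 and 2.996 CPM and vtg7 at 1.97, 0.691 and 2.44 CPM, both on rows that share reads.

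The nervous system took 0.659% ± 0.0148 by its neuronal list, in which 36 of 36 rows reached 1 CPM, and 0.273% ± 0.0109 by its progenitor list. The tubulins tuba1a at 1434, 1373 and 1304 CPM and tuba1c at 969, 849.9 and 819 CPM led the neuronal rows and share reads. The RNA-binding protein gene elavl3, of newly born neurons, had 618, 612 and 628 CPM, and the brain fatty acid carrier fabp7a, of radial glia, had 554, 503 and 449.6 CPM. Proliferation genes were well measured, with 0.562% ± 0.0272 on the cell division list, the replication clamp pcna at 573, 544 and 578 CPM and mki67 at 360.1, 439 and 440.1 CPM. Of the myelin genes, plp1a had 125, 119 and 143 CPM and mbpb 38.8, 37.5 and 32.5 CPM, while mbpa had 1 count in replicate 1 and 0 counts in the others.

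Of the eye, the lens list took 0.678% ± 0.0524 in 35 of 53 rows at 1 CPM or more, led by crybb1l2 at 513, 450.3 and 508 CPM. Crystallins of the crygm2d family, such as crygm2d8 at 541, 507 and 424 CPM, share reads among themselves. Photoreceptors took 0.00972% ± 0.00106, of which most came from the transcription factors otx5 at 44.8, 45.4 and 29.3 CPM, crx at 37.1, 35.1 and 30.0 CPM and nr2e3 at 11.4, 9.43 and 9.02 CPM. Rod opsin, rho, had 1.87, 0.778 and 1.38 CPM, and the 4 cone opsin rows lay below 1 CPM, opn1sw2 being the highest of them at 0.583, 0.292 and 0.460 CPM. The cone opsin rows thus sat close to or below the floor of 3 counts in these pools, while rho, at 16, 8 and 15 counts, was low but above it. The ear list took 0.0146% ± 0.000666, with the otolith protein starmaker, stm, at 80.9, 87.8 and 79.8 CPM.

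Reads of blood came mainly from red cell genes. Embryonic globins took 0.859% ± 0.413 in 9 of 9 rows, and the other red cell genes 0.0576% ± 0.0129. Neutrophils took 0.0233% ± 0.00291, led by the lysozyme gene lyz at 134, 100.3 and 106 CPM and nccrp1 at 42.4, 33.6 and 32.4 CPM. The myeloperoxidase gene mpx had 26.2, 26.9 and 22.4 CPM. Macrophage genes took 0.00424% ± 0.0000694, with mpeg1.1, for a pore-forming protein, at 3.96, 3.79 and 3.59 CPM. Stem and progenitor genes took 0.00457% ± 0.000425, where myb had 12.2, 14.2 and 16.7 CPM and runx1, needed for the emergence of stem cells, 1.17, 1.56 and 1.75 CPM. The lymphoid list was low, with rag1, of receptor gene rearrangement, at 1.63, 0.680 and 1.197 CPM and rag2 at 0.816, 0.583 and 0.552 CPM. Among thrombocyte genes itga2b had 0 counts in all 3 pools, and gp1bb had 4.43, 3.79 and 3.13 CPM. Most of the list's 0.0336% ± 0.00260 came from fn1b at 185, 201 and 226 CPM and thbs1b at 126, 131 and 128 CPM. Other tissues make fn1b and thbs1b as well.

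Endothelium took 0.0389% ± 0.00145 with 21 of 21 rows at 1 CPM or more, and the pronephros 0.0390% ± 0.00278 with 13 of 13. The vascular receptor kdrl had 33.7, 39.7 and 40.8 CPM and the junction protein cdh5 41.5, 35.4 and 35.6 CPM. The kidney list was led by the sodium pump subunit atp1a1a.2 at 147, 147 and 145 CPM. Germ cell genes were not detectable above 1 CPM in any of 7 rows by their mean, with ddx4, the germ cell helicase vasa, at 0.583, 0.389 and 0.368 CPM. Of 10 pituitary rows only prolactin, prl, at 5.596, 6.51 and 7.64 CPM and its regulator pou1f1 at 1.17, 1.07 and 0.829 CPM reached 1 CPM.

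Pigment cell genes were measurable in all 3 classes. Melanin synthesis took 0.0243% ± 0.00167, with pmela at 54.5, 46.0 and 49.0 CPM, tyrp1b at 53.9, 44.4 and 40.4 CPM and dct at 41.0, 33.1 and 36.8 CPM, and 12 of 13 rows at 1 CPM or more. The retinal pigment epithelium makes these genes too, and whole-embryo counts do not separate it from skin. The list of xanthophores, the yellow pigment cells, took 0.0225% ± 0.00265, with gch2, of pteridine synthesis, at 120.3, 151 and 135 CPM. The iridophore list took 0.00954% ± 0.000364, led by gpnmb at 35.3, 32.9 and 27.3 CPM and alx4a at 24.7, 27.8 and 23.3 CPM. The purine enzyme pnp4a had 18.5, 15.6 and 18.5 CPM and the receptor kinase ltk 10.1, 11.4 and 10.3 CPM. Whole-embryo counts do not show whether these reads came from iridophores.

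**Figure D3:**
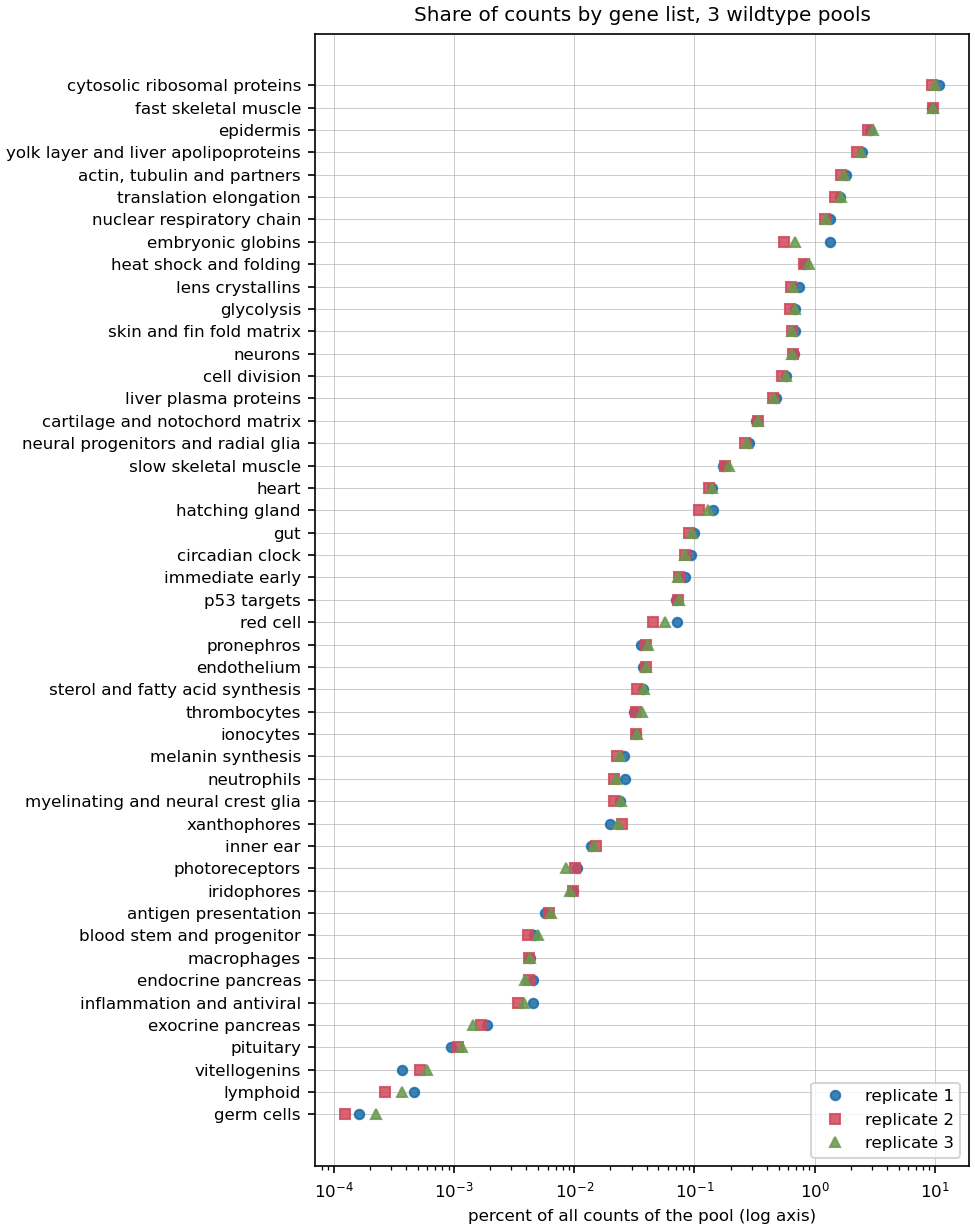
Percent of all counts (log axis) taken by each of 47 gene lists in wildtype replicate 1 (circles), replicate 2 (squares) and replicate 3 (triangles), in order of the mean. Most lists vary little between pools, and embryonic globins, at 1.33%, 0.557% and 0.691%, spread more than the lists next to them.

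Gene by gene, the 3 pools differed by little. Over 19925 rows with a mean of at least 1 CPM, the median SD of log2 CPM was 0.16, with 5% of rows below 0.037 and 5% above 0.56. The median range, highest pool minus lowest, was 0.30 on the log2 scale, or 1.23-fold. The range stayed under 0.25 in 8266 rows (41.5%), and it reached 1, a 2-fold difference, in 1182 rows (5.93%). Between single pairs of pools, over the same rows, it reached 1 in 427 rows for replicates 2 and 3, 582 for replicates 1 and 3 and 729 for replicates 1 and 2. The common biological coefficient of variation, which is the spread left after counting error in the fit across all rows, was 13.6%, and single rows had a median of 11.7% with 5% below 8.43% and 5% above 26.6%.

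In low rows the median SD was close to the counting SD, the Poisson error of the mean count. The match does not show that counting alone accounts for their spread. Under counting alone, the median of SDs taken over so few pools would lie below the counting SD. From 1 to 10 CPM, 8732 rows had a median SD of 0.25, against 0.24 from counting, and 1086 of them (12.4%) had a range of at least 1. From 10 to 100 CPM, 9707 rows had a median SD of 0.12 against 0.092 from counting, and 71 rows had such a range. From 100 to 1000 CPM, 1354 rows had a median SD of 0.088 against 0.035, and 18 had such a range. The 132 rows at 1000 CPM or more had a median SD of 0.092 against 0.011 from counting, and in 126 of them the SD was more than 2 times the counting SD. The median SD thus did not fall further above 1000 CPM, while the counting SD did.

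Rows that share reads were less steady. The 14870 rows with whole counts in every pool had a median SD of 0.14, and 507 of them (3.41%) reached a range of 1. The 3298 rows with non-whole counts in every pool had a median SD of 0.21, and 487 (14.8%) reached it. Their median levels were 14.6 and 6.86 CPM, so the groups also differed in depth.

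**Figure D4:**
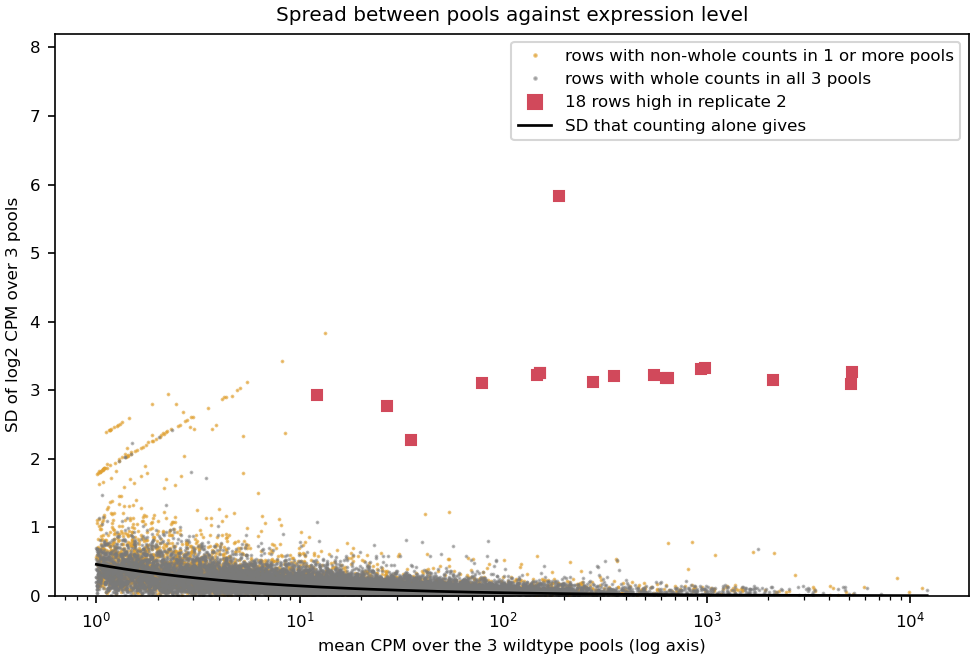
SD of log2 CPM over the 3 wildtype pools (y axis) against mean CPM (x axis, log), 1 point per row with a mean of at least 1 CPM, coloured by whether counts were whole, with the SD that counting alone gives as a black line. The cloud lies on both sides of the line at low CPM and stays above it at 1000 CPM and more, where the median SD was 0.092. The 18 rows of replicate 2 (squares) lie far above.

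The pools differed from each other by more than counting error. The median absolute difference between pools was 0.19 on the log2 scale for replicates 1 and 2, 0.18 for replicates 1 and 3, and 0.16 for replicates 2 and 3. Against counting error only, the median chi-square statistic over rows was divided by the median that counting alone gives. This ratio was 2.61, 2.51 and 2.17 in the same order, where counting alone gives about 1. A pool stood at least 1 log2 unit above or below both others in 556 rows (2.79%). Replicate 1 did so in 262 rows, 64 higher and 198 lower, replicate 2 in 174 rows, 87 higher and 87 lower, and replicate 3 in 120 rows, 29 higher and 91 lower. At a mean of at least 50 CPM such rows were few, with 3 for replicate 1, 15 for replicate 2 and 1 for replicate 3. All 15 were higher in replicate 2 and belonged to the block described above.

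The steadiest named rows at 50 CPM or more lay far below the counting error. The row VIT had 71.5, 71.6 and 71.6 CPM, tuba1b, an alpha-tubulin, 145, 144 and 145 CPM, and lsm14aa, of RNA granules, 68.1, 67.7 and 68.2 CPM. The neuronal sodium channel scn8aa had 61.2, 61.1 and 61.6 CPM, the reticulon rtn1a 408, 408 and 405 CPM and the tetraspanin cd81a 619, 623 and 618 CPM. The others were the adaptor shc1, the kinase akt2, the peptidase thop1 and the phosphatase ptp4a2a, with SDs between 0.0062 and 0.0069. The SD of VIT, 0.0019, was below its counting SD of 0.054, so an order among such rows is not meaningful at this depth. These SDs also depend on the scaling, and with library totals in place of TMM those of the 10 rows ran from 0.022 for thop1 to 0.034 for scn8aa.

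The most variable named rows at 1 CPM or more were mostly at 0 in 1 or 2 pools. ATG2A, for an autophagy lipid transfer protein, had 0.00233, 1.48 and 23.1 CPM. The gene zcchc6, for a terminal uridyltransferase, had 6.98, 0 and 5.74 CPM, and secisbp2l, for a SECIS-binding protein, had 0, 4.07 and 4.11 CPM. All 3 have non-whole counts in 2 pools. Protocadherin pcdh2ab6 was read in replicate 1 alone, at 3.91 CPM, and RYR2 and cux2a in replicate 2 alone, at 3.67 and 3.50 CPM, each on a row with a non-whole count. The transcription factor creb3l4 had 0.529, 13.6 and 11.1 CPM, low in replicate 1, and nat6, the 1 row of this group other than rn7sk with whole counts throughout, had 1.87, 0 and 2.30 CPM. The others were pcdh2ab3, ugt5e1 and hist1h2a11. Rows with clone or placeholder names that stood between these numbered 83.

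At 50 CPM or more, the most variable named rows held 6 globin rows. Besides them stood the collagen chaperone serpinh1b with 44.5, 74.5 and 134 CPM, a span of 3.01-fold with replicate 3 highest, and the arrestin-domain gene arrdc3b with 46.5, 90.1 and 33.3 CPM, highest in replicate 2. The splicing-related gene rsrp1 had 75.8, 53.7 and 121 CPM, highest in replicate 3, and g6pca.2, for the glucose-6-phosphatase that releases glucose, had 77.2, 79.8 and 39.0 CPM, lowest in replicate 3. These 4 rows have whole counts in every pool. The pair tceb2 and elob completed the group.

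That pair carried the same gene under 2 names. In the RefSeq table tceb2 is an older name of elob, for elongin B, a partner of ubiquitin ligases, and both rows share reads. The older row had 28.1, 23.5 and 111 CPM and the newer 182, 169.6 and 87.9 CPM, so the rows moved in opposite directions, while their sum was 209.7, 193 and 199 CPM with an SD of 0.061. The counts of tceb2 were 241.29, 241.29 and 1206.45, which are 1, 1 and 5 times the smallest. In 22 pairs of rows the RefSeq table lists 1 name as an older name of the other. These were matched by name alone, so some may hold different genes, such as rrm2b with rrm2 and selenot2 with sept2. The sum was steadier than either row in 13 pairs, and the median SD was 0.19 for the newer name, 0.47 for the older and 0.085 for the sum. In 8 of these pairs both rows had non-whole counts in at least 2 pools. In 7 of the 8 the sum was steadier than either row, with median SDs of 0.30, 0.79 and 0.050 in the same order.

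Counts of rows that were highest or lowest in a pool are given below, to be read next to the shares of all 19925 rows. Of these rows 35.5%, 33.4% and 31.1% were highest and 35.8%, 33.0% and 31.2% lowest in replicates 1 to 3. For lists chosen after seeing values, such counts are a description only. Globins varied most between pools among the tissue lists at a share of 0.1% or more. Globins took 1.33%, 0.557% and 0.691% of the counts in replicates 1 to 3, and 9 of 9 rows were highest in replicate 1 and lowest in replicate 2. The alpha-globin hbae3, whose counts were whole, had 2810.1, 1142 and 1409.9 CPM. The rows hbae1.1 and hbae1.3 share reads, and their sum was 4365, 1860.3 and 2160.1 CPM. The beta-globins hbbe1.1, hbbe1.2 and hbbe1.3, which also share reads, summed to 5671, 2395 and 2867 CPM. Replicate 1 was the highest in both families, and replicates 2 and 3 were closer to each other. Without replicate 1 the SD of hbae3 was 0.22 on the log2 scale, against 0.68 over all 3 pools.

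Other red cell genes went the same way in most cases, with 11 of 14 highest in replicate 1 and 12 of 14 lowest in replicate 2. The anion exchanger slc4a1a had 211, 117 and 150.1 CPM, the carbonic anhydrase cahz 118, 64.3 and 87.8 CPM and alas2, the first enzyme of heme synthesis in red cells, 99.0, 48.1 and 60.8 CPM. The nucleotidase nt5c2l1 had 29.1, 11.76 and 18.3 CPM, and the erythroid regulators klf1 and gata1a had 7.58, 3.40 and 4.51 and 4.31, 2.33 and 2.95 CPM. The exceptions among the higher rows were the spectrin sptb at 64.8, 75.4 and 71.9 CPM, lowest in replicate 1, and the transferrin receptor tfr1a at 47.4, 44.5 and 47.9 CPM, nearly level. Of 8 neutrophil rows 6 were highest in replicate 1, among them lyz, by less than the globins. The blood stem and progenitor list was mixed, with 2 of 5 rows highest in replicate 1 and 3 in replicate 3. Its gene lmo2 had 14.1, 8.26 and 10.1 CPM, whereas myb had 12.2, 14.2 and 16.7 CPM.

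Chaperones ran differently. Of 19 rows on the heat shock and folding list 13 were highest in replicate 3 (31.1% of all rows were) and 10 lowest in replicate 1 (35.8% of all rows). A range of 1 was reached by 5 of them, against 5.93% of all rows. The inducible cytosolic chaperone hsp90aa1.1, which folding muscle myosin needs, had 139, 236 and 261 CPM and hsp90aa1.2 33.1, 61.5 and 65.2 CPM. Both were low in replicate 1 alone. The heat-inducible hsp70l, on a row that shares reads, had 5.10, 5.598 and 13.4 CPM, its relative hsp70.3 14.2, 13.2 and 27.5 CPM, and the co-chaperone dnajb1b 14.8, 13.97 and 29.1 CPM, and these were high in replicate 3 alone. Constitutive hspa8 and hsp90ab1, which take most of the reads of the list, spanned 1.09-fold and 1.02-fold, so the list share moved little, at 0.822%, 0.812% and 0.904%.

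Chaperones of the secretory pathway, a list chosen after seeing values, were lowest in replicate 1 in 11 of 15 rows. Of all rows 35.8% were, but because of that choice the count cannot be read against this share. The lumenal chaperone hspa5 had 229, 332 and 330.4 CPM and hsp90b1 had 196, 270.5 and 270.4 CPM. The transcription factor gene xbp1, of the same stress response, was level at 224, 224 and 221 CPM, and none of the 15 rows reached a range of 1. Of all rows 5.93% did, and of all rows at 10 to 100 CPM 0.731%.

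Genes of the light response were low in replicate 2, as a description of a chosen list. This list of 7 was also chosen after seeing values, and 6 of 7 rows were highest in replicate 1 and lowest in replicate 2. The clock gene per2 had 69.4, 29.8 and 50.0 CPM, the PAR-domain factor tefa 119, 58.6 and 98.1 CPM, and the photolyase relative cry-dash 25.5, 11.1 and 18.4 CPM. The heme-binding protein hebp2 had 59.11, 26.6 and 44.7 CPM, lonrf1, for a ubiquitin ligase, 42.7, 19.1 and 31.6 CPM, and cry5, the 6-4 photolyase, on a row that shares reads, 16.4, 5.04 and 12.1 CPM. The cryptochrome cry1ba went the other way at 60.2, 119 and 97.8 CPM. The wider clock list of 31 rows showed no such order, since 12 were highest in replicate 1, 15 in replicate 2 and 4 in replicate 3, and its share was 0.0930%, 0.0826% and 0.0834%. The labels do not give the time of day or the light at collection.

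Immediate early genes, which respond within minutes to stimuli and handling, were lowest in replicate 3 in 20 of 26 rows and highest in replicate 1 in 17, against 31.2% and 35.5% of all rows. The gene fosab had 15.8, 13.7 and 7.26 CPM and fosaa 7.34, 8.75 and 3.50 CPM, while the more abundant ier5 had 169, 141 and 135 CPM and btg2 127, 111 and 106 CPM. The list share was 0.0833%, 0.0750% and 0.0734%. The hatching gland, whose proteases dissolve the chorion, was lowest in replicate 2 in 6 of 6 rows. Its hatching enzyme rows share reads, and the sum of he1.1 and he1.2 was 1337, 1046 and 1183 CPM, while the list took 0.142%, 0.108% and 0.130%.

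Within muscle, total share and single genes behaved differently. As a share of all counts, the fast muscle list had a coefficient of variation of 1.56% across pools. That total includes the block of 18 rows, which lowers every other share in replicate 2. With TMM scaling the list summed to 94564, 99013 and 94342 CPM, highest in replicate 2. Its 44 rows had a median SD of 0.10, yet the rows for the giant filament proteins spread widely. On a list of 8 such genes chosen after seeing values, 7 were lowest in replicate 1 and 7 highest in replicate 2. Of all rows 35.8% and 33.4% were, but because of that choice the counts cannot be read against these shares. Titin, the molecular spring of the sarcomere, had 246, 497 and 348 CPM on ttn.1 and 234, 489.9 and 351 CPM on ttn.2. Nebulin, neb, the ruler of the thin filament, had 273, 458 and 376 CPM, and obscurin, obscnb, had 19.7, 55.4 and 44.7 CPM. The Xin repeat gene xirp2b had 6.06, 18.6 and 12.5 CPM, whereas xirp1 was lowest in replicate 2, with a span of 1.36-fold.

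Ribosomal protein rows moved the opposite way by small steps. Of 86 rows 83 were highest in replicate 1 and 63 lowest in replicate 2, with a median deviation from the mean of the pools of 0.11 log2 units in replicate 1, -0.07 in replicate 2 and -0.03 in replicate 3. None reached a range of 1, against 1.33% of all rows at 100 to 1000 CPM and 5.30% at 1000 CPM or more. The list took 10.8%, 9.43% and 10.1% of the counts. The nuclear respiratory chain also had most rows, 76 of 94, highest in replicate 1, but 54 were lowest in replicate 3 and 33 in replicate 2, with median deviations of 0.10, -0.03 and -0.06 in replicates 1 to 3. Over all rows the median deviation was at most 0.0031 in any pool. Ribosomal and respiratory proteins are small and the giant muscle proteins large. Transcript lengths were not used here, and their part in the opposite order was not tested.

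Lens crystallins were highest in replicate 1 in 25 of 35 rows and lowest in replicate 3 in 23, against 35.5% and 31.2% of all rows. Of the 35 rows 19 have non-whole counts in every pool, so they share reads and are not independent. The rows crybb1 and crybb1l1 were low in replicate 2, at 364, 207 and 309 CPM and 319, 201 and 281 CPM. Neuronal rows varied little, with a share of 0.674%, 0.656% and 0.645%. None of 36 rows reached a range of 1, which is near the 0.731% of all rows at 10 to 100 CPM and the 1.33% at 100 to 1000 CPM. Of the 36 rows 26 were lowest in replicate 3, against 31.2% of all rows. Cartilage, skin matrix, endothelium and heart lists likewise kept their shares within 1.07-fold between the highest and the lowest pool. These shares are of totals that include the block of replicate 2. With TMM scaling the endothelium list summed to 373, 404 and 389 CPM, a wider span than by share.

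**Figure D5:**
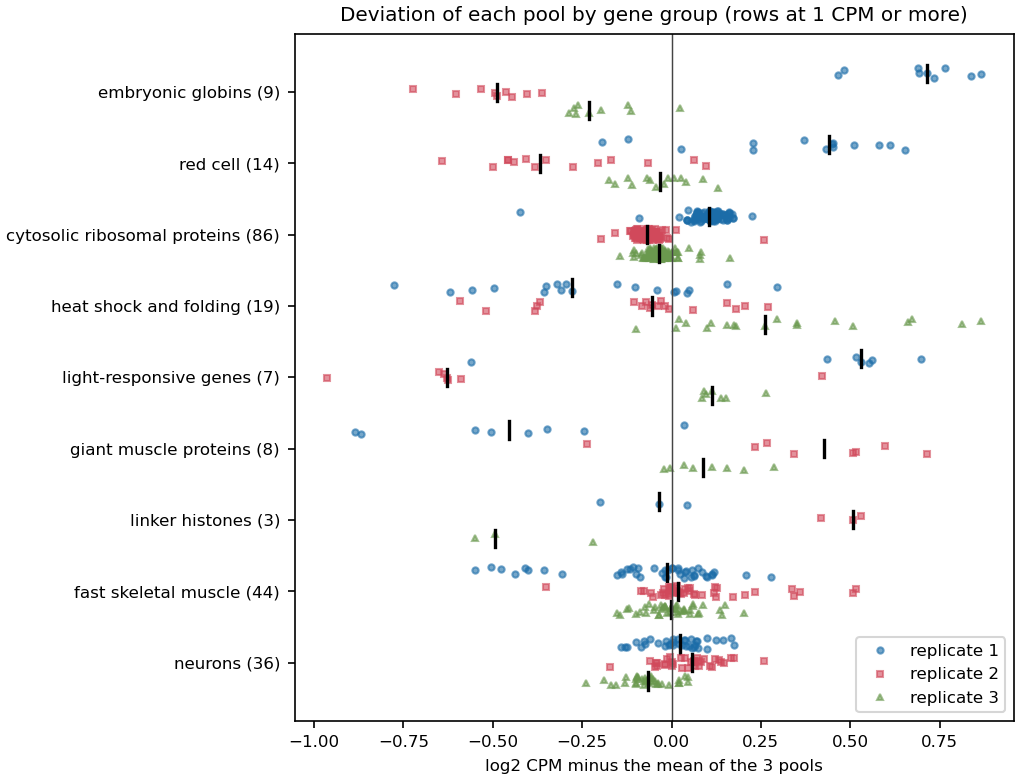
Log2 CPM of each pool minus the mean of the 3 wildtype pools (x axis), for rows at 1 CPM or more in 9 gene groups (number of rows in brackets), with circles for replicate 1, squares for replicate 2, triangles for replicate 3 and black bars for medians. Globins of replicate 1 lie to the right with a median of 0.71, light-responsive genes of replicate 2 to the left with a median of -0.63, and ribosomal protein and neuronal rows stay close to 0. The light-responsive, giant muscle and linker histone groups were chosen after their values had been seen, so their positions are a description only.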

How the data were processed

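The authors deposited 1 table of expected counts per gene row and library, which were not normalized between libraries. The tools named in the submitters' processing notes are STAR, RSEM and DESeq2, and the build is danRer11. Their versions and the annotation used for counting are not given in the sources used here. Per the labels' protocols, poly-A RNA was enriched and fragmented with RNase III. Whether counting used strand is not stated, so overlapping and antisense genes are uncertain. Poly-A selection leaves most RNAs without a tail out.

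The 3 columns named casper were matched to the wildtype samples by number; the mutant columns were not used. Counts were scaled with TMM in R 4.3.3 with edgeR 4.0.16, unrounded. Log2 CPM used a prior count of 2, and spread is the SD and range over 3 pools for rows with a mean of at least 1 CPM. The counting SD is the Poisson error of the mean count on the log2 scale. Counts were rounded for edgeR's dispersion fit only. Values within 0.005 of an integer were called whole. Symbols were matched to RefSeq names (assembly GRCz12tu, 21478 rows) for names and gene types alone.

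No group was compared and no p-value computed. The members and lists were chosen with earlier results of these data known. Lists of histones, RNAs without a tail, light-responsive genes, giant muscle proteins and secretory chaperones were added after their values were seen. The named genes were the 25 highest rows, the 12 most variable at 1 and at 50 CPM, the 10 steadiest at 50 CPM, the 3 highest and the 2 most variable of each list, and dnajc21, mitfa and mpv17. Clone and placeholder names were passed over (2, 83, 15 and 1 in the 4 rankings). Other genes named as examples of a list were chosen after their values were seen. On simulated counts of 19925 rows for the 3 pools, a planted coefficient of variation of 14% was fitted as 14.1%. With 200 rows changed in 1 pool it was fitted as 16.2%, so outlying rows raise this value. A range of 1 was then reached by 78% of rows with a 2-fold and 100% of rows with a 4-fold change, and by 3.51% of the others. Figures used Python 3.11.15 and matplotlib 3.10.9. DESeq2 1.42.0 size factors were an alternative.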

Additional observations from a re-analysis of the deposited data

How the results depend on the processing

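The composition, the list shares and the summary values of spread over all rows kept their values within 1 SD or 1.5 times under library totals without TMM, DESeq2 size factors and TMM-scaled shares, and so did the median SD under a prior count of 0.5 or 5. The SDs of the 10 steadiest rows did not, and ran from 0.022 to 0.034 under library totals without TMM, and that of tuba1b was 0.0048 under DESeq2 size factors. The number of rows with a range of at least 1 was 4810 with no filter, 96 above a 10 CPM minimum, 584 with filterByExpr and 507 over rows with whole counts in every pool, where the coefficient of variation was 8.65%. Rows with replicate 1, 2 or 3 apart numbered 1166, 1018 and 739 with no filter, 10, 22 and 4 above that minimum, 84, 50 and 33 with filterByExpr and 92, 37 and 31 over rows with whole counts. With a prior count of 5 they numbered 169 for replicate 1 and 66 for replicate 3. Leaving out a pool gave a median range of 0.16 to 0.19 and 449, 564 and 730 rows with a range of at least 1 without replicate 1, 2 or 3, by construction over 2 pools. These counts differ from the pairwise counts over 19925 rows above, which used the scaling of all 3 pools. Over rows with whole counts the shares were 7.14% for fast muscle, 2.29% for epidermis and 11.6% for ribosomal proteins. Without globin and ribosomal protein rows in the total they were 10.8% for fast muscle, 3.27% for epidermis and 2.70% for apolipoproteins. Ribosomal protein counts equalled 11.4% of that total, a ratio and not a share, since the total leaves them out. Without the 18 rows of replicate 2, a setting chosen after seeing the data, fast muscle took 9.77%. Of the other values, 49 SDs of named genes moved and 342 did not, and 77 list shares moved and 224 did not.

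CPM per kilobase of coding length was not run, since no coding lengths were used here. No paired analysis was possible because no result comes from a test between groups. Groups of 3 were not checked for outliers. At 1 to 10 CPM, counting error limits what spread can be seen. Rows that share reads have an uncertain spread of their own.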
